A study of Rattus norvegicus with 6 samples.

Results

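Interleukin-6 (Il6), interleukin-1 beta (Il1b), the chemokines Ccl2, Cxcl1 and Cxcl2, the prostaglandin synthase Ptgs2 and lipocalin-2 (Lcn2) are 7 inflammation genes, followed here among the 30560 genes of a rat RNA sequencing table. They were listed by identifier, at a time when earlier results of these data were known, so counts over them are descriptions. The cells were bone marrow mesenchymal stem cells, adherent stromal cells of the marrow that can form bone, isolated from rats and kept in osteogenic differentiation in both groups. The siNC group received a control siRNA and the siS100A16 group an siRNA against S100A16, a small calcium-binding protein of the S100 family, with 3 samples in each group. The question of the study was what S100A16 does in bone formation. The labels give no strain, age, differentiation time or siRNA dose, and do not say whether samples came from separate animals or cultures, so the p-values below speak for these 6 libraries, and their spread may be technical only.

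Stromal cells answer infection and injury by switching on a shared set of inflammatory genes. Interleukin-1 beta and similar signals act through the transcription factor NF-kappaB, which enters the nucleus and binds near target genes. The chemokines made in this way call in blood cells: Ccl2 attracts monocytes, and Cxcl1 and Cxcl2 attract neutrophils. Ptgs2, also known as COX-2, makes the precursor of prostaglandins. Il6 is a secreted cytokine with effects on immune cells and on bone turnover. Lcn2 binds bacterial iron carriers and is often raised with the acute phase response.

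The deposited values are FPKM, that is, reads scaled by gene length and by the library's total, so levels of different genes can be compared. Libraries held between 5387539 and 8059327 counted reads, with all 3 siS100A16 libraries smaller than all 3 siNC libraries. Genes above 0 numbered 15778 to 16609 in the siS100A16 libraries and 17895 to 18038 in the siNC libraries. The table lists Ensembl identifiers without names. The 7 identifiers are ENSRNOG00000010278 (Il6), ENSRNOG00000004649 (Il1b), ENSRNOG00000007159 (Ccl2), ENSRNOG00000002802 (Cxcl1), ENSRNOG00000002792 (Cxcl2), ENSRNOG00000002525 (Ptgs2) and ENSRNOG00000013973 (Lcn2), and these pairings were taken as given for this gene set. The one available check was length: the gene lengths worked out from the FPKM values ran from 784 nt for Ccl2 to 4381 nt for Ptgs2, and for 7 of 7 genes lay within the span of the RefSeq gene of that name in GRCr8. This check is a weak one, since many other genes would pass it. Identifiers for S100A16 itself, for cell type markers and for further inflammatory genes were not paired with names, so the silencing, the cell type and the presence of macrophages were not assessed here. In RNA from bulk cells, a change in the number of cells that express a gene and a change in RNA per cell cannot be told apart.

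Ccl2, Cxcl1 and Ptgs2 rose after S100A16 siRNA, and Cxcl2 had higher values that the filter favoured. Il6 was low in both groups and did not pass the test. Lcn2 was lower in 2 of the 3 siS100A16 samples, and Il1b was close to the detection limit. Of the 7 genes, 6 had a mean FPKM of at least 1 and were tested. Among them 4 were called higher and 0 lower (limma, Benjamini-Hochberg adjusted p under 0.05 over all tested genes). Over all 12336 tested genes 16.4% were called higher and 4.27% lower. With median-of-ratios scaling 2 of the 6 were called higher and 1 lower, beside 928 higher and 821 lower of all tested genes. Without siNC replicate 1, 2 or 3 in turn, 2 of the 6 were called higher and 0 lower. Calls over all tested genes fell too in these 3 fits, to 964, 477 and 1164 higher and to 201, 93 and 175 lower. Cxcl2 passed the filter only through its siS100A16 values, so it had to differ, and its call adds nothing to the count. The median log2 fold change was 1.17 over the 6 genes and 0.94 without Cxcl2, and 0.17 over all tested genes. The groups did not overlap, with siS100A16 higher, for the same 4 genes, as they did for 29.3% of all tested genes. Cxcl2 is among these 4, and the filter favoured its separation too, so it adds nothing to this count either.

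**Figure D1:**
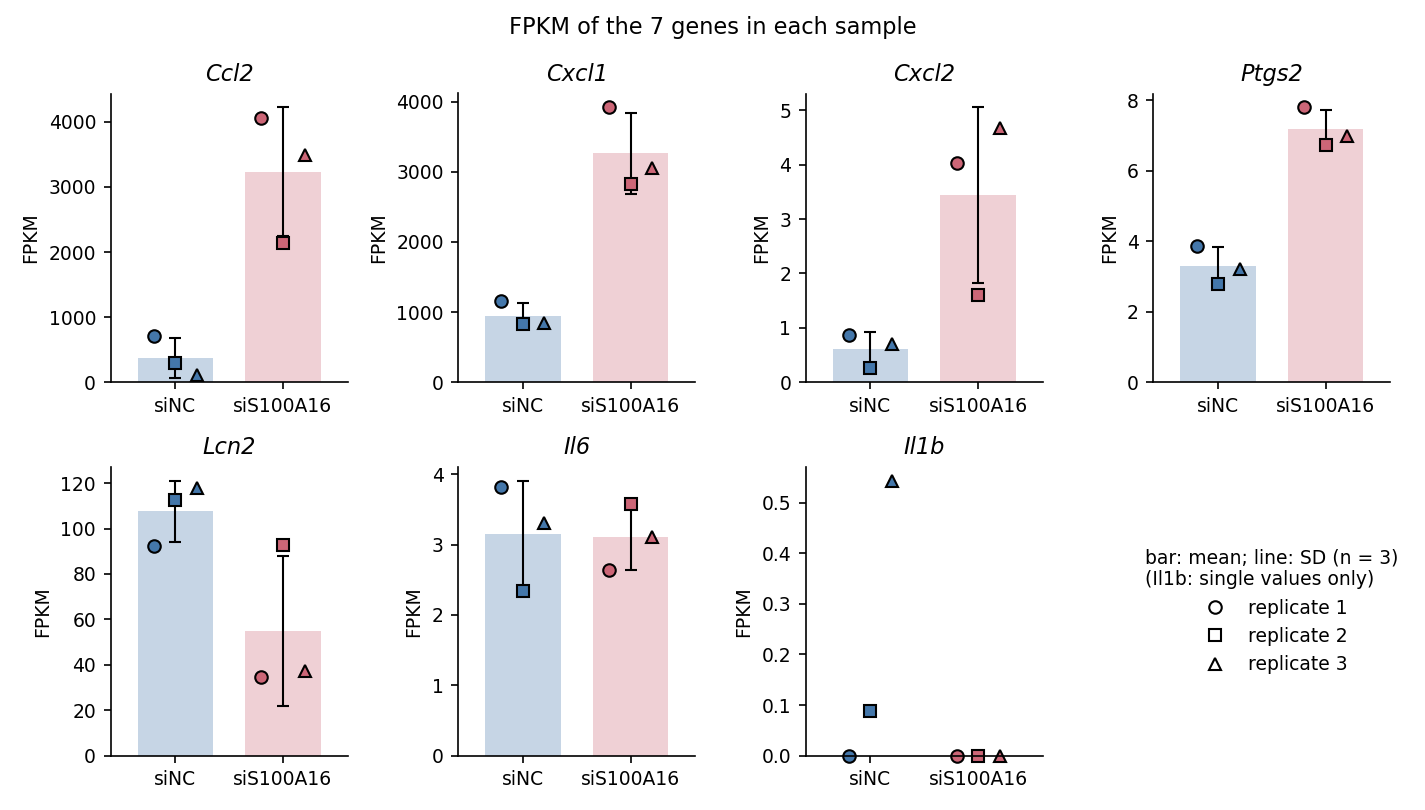
FPKM of the 7 genes in each sample on linear axes that start at 0, with siNC in blue and siS100A16 in red; bars are means, lines are SD (n = 3), and circles, squares and triangles are replicates 1, 2 and 3. For Ccl2, Cxcl1, Cxcl2 and Ptgs2 every siS100A16 point lies above every siNC point, Lcn2 of siS100A16 replicate 2 lies with the siNC samples, and Il1b is shown as single values without a mean.

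Ccl2, the monocyte chemoattractant, showed the largest change of the 6 tested genes. Its FPKM was 710, 300 and 110 in siNC replicates 1 to 3 and 4065, 2133 and 3497 in siS100A16 replicates 1 to 3. The lowest siS100A16 sample thus lay far above the highest siNC sample. The means were 374 ± 307 and 3232 ± 993 FPKM (SD, n = 3 each). On the log2(FPKM + 1) scale the difference was 3.44 (SE 0.59, limma adjusted p = 0.00828), a 10.8-fold rise. By log2 fold change Ccl2 ranked 5 among the 12336 tested genes. By mean FPKM Ccl2 moved from rank 158 to rank 17 of all genes in the table. These are deep values, resting on 6587 reads in siNC and 47553 in siS100A16.

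The control level of Ccl2 was itself uneven. The highest siNC sample was 6.43 times the lowest, whereas the siS100A16 samples differed by 1.91 times. The SD of its log2 values within siNC was 1.34, larger than that of 99.5% of tested genes, against a median of 0.17. Without siNC replicate 3, the lowest, the log2 fold change was 2.75, and without siNC replicate 1, the highest, it was 4.09, in each case with an adjusted p under 0.05 (limma, 0.0201 and 0.0104). The size of the rise therefore depends on which control samples enter, from 2.75 to 4.09 on the log2 scale, while its direction and call held in both.

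Cxcl1, a neutrophil chemoattractant that signals through the receptor CXCR2, rose from an already high level. The siNC samples had 1157, 829 and 838 FPKM and the siS100A16 samples 3919, 2819 and 3048 FPKM. The samples of each group lay close together, and the groups were far apart. The means were 942 ± 187 and 3262 ± 581 FPKM (SD, n = 3 each). This was a 3.47-fold rise, or 1.79 on the log2 scale (SE 0.18; adjusted p = 0.00438, limma). Cxcl1 moved from rank 49 to rank 16 by mean FPKM, next to Ccl2.

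Ccl2 and Cxcl1 together took 0.124% ± 0.0422 of the counted siNC reads and 0.581% ± 0.131 of the siS100A16 reads (mean and SD of 3 samples). In single samples this share ran from 0.0928% (95% Wilson interval 0.0908 to 0.0950) in siNC replicate 3 to 0.712% (0.706 to 0.719) in siS100A16 replicate 1. Such intervals reflect the number of reads alone, and they are far narrower than the spread between samples. Whether PCR copies of a molecule were counted separately was not given in the sources used here.

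Cxcl2, the close relative of Cxcl1, was present at a very much lower level. Its FPKM was 0.864, 0.261 and 0.694 in siNC and 4.03, 1.61 and 4.67 in siS100A16. In reads these are 7, 2 and 6 against 30, 11 and 27, so that counting error weighs on every value. The means were 0.607 ± 0.311 and 3.44 ± 1.62 FPKM (SD, n = 3 each). A log2 fold change of 1.41 was fitted (SE 0.39, limma adjusted p = 0.0373). Since Cxcl2 passed the filter only through its siS100A16 values, a difference was favoured in advance, and this p is not counted as support. The 1 FPKM added before the logarithm makes the fitted value understate the change, as the means themselves differ 5.67-fold. The call did not hold in 10 of 17 alternatives: median-of-ratios scaling gave an adjusted p of 0.0628 and limma voom on whole reads 0.0895, and with any single sample except siS100A16 replicate 2 left out it was between 0.0770 and 0.155. The direction was the same in all 17.

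Ptgs2, the inducible cyclooxygenase, rose by a small but even step. The siNC samples had 3.86, 2.78 and 3.20 FPKM and the siS100A16 samples 7.80, 6.72 and 6.99 FPKM. No sample of either group came near the other group. The means were 3.28 ± 0.545 and 7.17 ± 0.560 FPKM (SD, n = 3 each), a difference of 0.94 on the log2 scale (SE 0.21; adjusted p = 0.0200, limma). Within siS100A16 its log2 values had an SD of 0.098, smaller than in most tested genes. The median SD over tested genes was 0.37 in siS100A16 and 0.17 in siNC, while the fit takes 1 variance per gene for both groups. With median-of-ratios scaling the adjusted p was 0.0534 at a log2 fold change of 0.74. Without siNC replicates 1, 2 or 3 it was 0.0547, 0.114 and 0.0708.

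Il6 gave no call in either direction. Its FPKM was 3.82, 2.35 and 3.31 in siNC and 2.63, 3.58 and 3.11 in siS100A16, from 22 to 38 reads per sample. The values of the groups lay within each other. The means were 3.16 ± 0.750 and 3.11 ± 0.472 FPKM (SD, n = 3 each), with a log2 fold change of -0.01 (SE 0.26; adjusted p = 0.986, limma). The 95% interval of this difference ran from -0.60 to 0.59 on the log2(FPKM + 1) scale. At this low level the added 1 FPKM narrows it. With 0.1 FPKM added the SE was 0.33, and limma voom gave -0.26 (SE 0.44). A change of the size of that interval, or larger, in either direction is therefore not excluded by these values.

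Il1b, the cytokine that in other settings drives these genes, was barely detected. It was listed at 0 in siNC replicate 1 and in all 3 siS100A16 samples, and stood at 0.0876 FPKM (1 read) in siNC replicate 2 and 0.543 FPKM (7 reads) in siNC replicate 3. A count of 0 allows up to 3 reads, or 0.271, 0.294 and 0.348 FPKM in siS100A16 replicates 1 to 3. With a mean FPKM under 1 it was not tested in the reported fit, and in the alternative with no filter it was not called (log2 difference -0.25, SE 0.16, limma adjusted p = 0.462).

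Lcn2 had the largest difference towards lower values among the 6 tested genes. The siNC samples had 92.5, 113 and 118 FPKM and the siS100A16 samples 34.4, 92.9 and 37.2 FPKM. Replicates 1 and 3 of siS100A16 lay far below the controls, while replicate 2 lay just above the lowest control. The means were 108 ± 13.4 and 54.8 ± 33.0 FPKM (SD, n = 3 each). The log2 fold change was -1.10 (SE 0.35) and did not pass the threshold (limma adjusted p = 0.0587). Without siS100A16 replicate 2 the log2 fold change was -1.56 and the limma adjusted p 0.00592. The outcome depended on the processing as well, with that sample kept. With median-of-ratios scaling Lcn2 was called lower, at -1.33 (limma adjusted p = 0.0385). In all it was called lower in 8 of 18 alternatives.

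**Figure D2:**
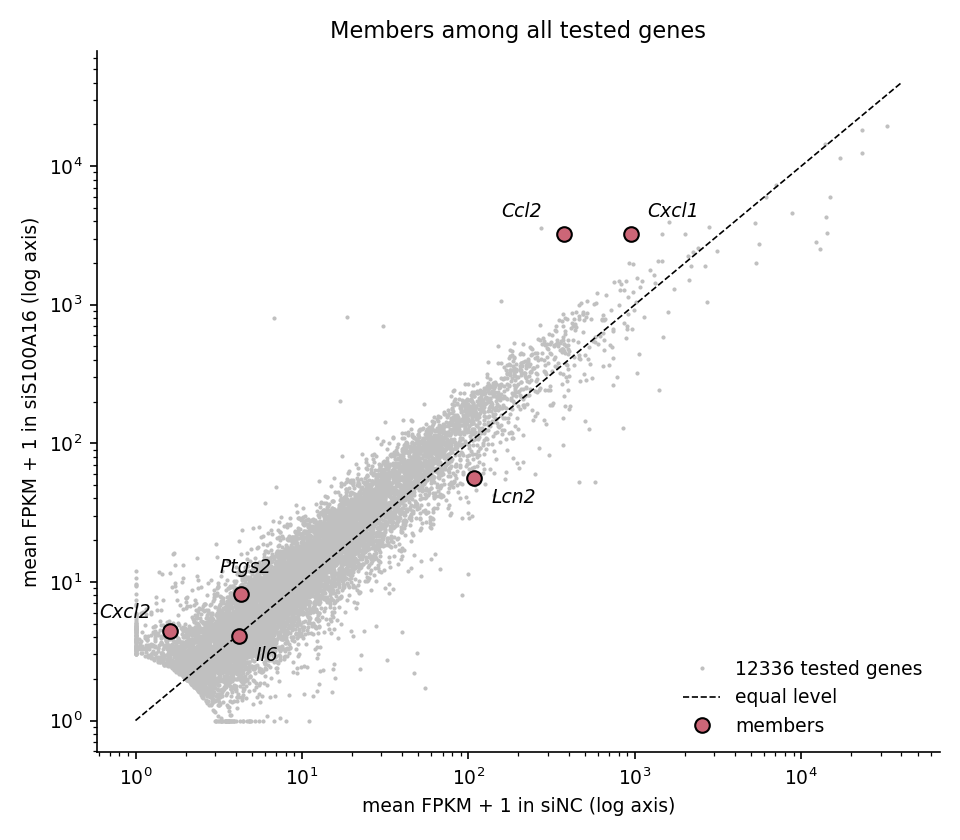
Mean FPKM + 1 in siNC (horizontal) and siS100A16 (vertical), both on log axes, for the 12336 tested genes in grey and the 6 tested genes of the set in red; the dashed line marks equal levels. Ccl2 and Cxcl1 stand at the upper end of the range and above the line, Cxcl2 and Ptgs2 lie above it at low levels, Il6 lies on it and Lcn2 below.

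Promoter sequences are shown for 4 of these genes because they set Cxcl1, Cxcl2 and Ptgs2, with higher values in siS100A16, beside Il6, which was not called. They are the 250 bases before the RefSeq gene start in GRCr8, 5′ to 3′ on the strand of the gene, at chr14:17479322-17479571 (minus strand) for Cxcl1, chr14:17467256-17467505 (minus) for Cxcl2, chr13:64713813-64714062 (plus) for Ptgs2 and chr4:5894576-5894825 (minus) for Il6. Capitals mark matches on either strand to the NF-kappaB consensus and to a C/EBP motif, TTNNNCAA, where N is any base.
Cxcl1: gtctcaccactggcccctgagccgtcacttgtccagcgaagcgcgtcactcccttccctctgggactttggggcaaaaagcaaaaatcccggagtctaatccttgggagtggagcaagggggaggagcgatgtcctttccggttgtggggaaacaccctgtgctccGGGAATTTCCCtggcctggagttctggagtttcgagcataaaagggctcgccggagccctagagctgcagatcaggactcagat
Cxcl2: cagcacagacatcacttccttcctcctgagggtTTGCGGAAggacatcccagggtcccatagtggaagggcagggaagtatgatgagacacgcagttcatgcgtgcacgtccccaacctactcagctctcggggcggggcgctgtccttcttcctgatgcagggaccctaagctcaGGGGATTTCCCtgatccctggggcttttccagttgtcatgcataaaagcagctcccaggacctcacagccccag
Ptgs2: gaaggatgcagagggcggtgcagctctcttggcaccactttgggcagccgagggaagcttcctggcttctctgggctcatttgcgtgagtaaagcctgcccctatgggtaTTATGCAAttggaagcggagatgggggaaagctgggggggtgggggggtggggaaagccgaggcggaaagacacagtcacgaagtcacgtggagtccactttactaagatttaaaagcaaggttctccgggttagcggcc
Il6: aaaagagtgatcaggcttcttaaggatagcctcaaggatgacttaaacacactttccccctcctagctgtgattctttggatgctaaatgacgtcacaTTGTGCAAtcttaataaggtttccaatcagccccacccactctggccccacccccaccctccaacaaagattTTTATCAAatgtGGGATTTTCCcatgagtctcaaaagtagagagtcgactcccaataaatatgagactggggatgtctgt

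In these windows the NF-kappaB consensus occurs in Cxcl1 from 84 bases before the start as GGGAATTTCC, in Cxcl2 from 74 bases before it as GGGGATTTCC and in Il6 from 68 bases before it as GGGATTTTCC. In Cxcl1 and Cxcl2 a further match overlaps the first by all but its outer base, which makes the capitals run on. Of 33469 RefSeq promoters searched over the same 250 bases 3.5% hold such a match. The Ptgs2 window has none, and has a C/EBP match, TTATGCAA, from 140 bases before the start; 33.8% of promoters hold one. Cxcl2 and Il6 hold C/EBP matches too. The AP-1 letters TGANTCA were also searched and are in none of the 4 windows (6.3% of promoters hold them), nor are the letters TATAAA (12.9%). NF-kappaB letters are in the windows of Cxcl1, Cxcl2 and Il6 alike, and whether they bear on the changes was not tested. The windows of Lcn2 and Il1b were searched as well. The Lcn2 window, chr3:36081781-36082030 (minus strand), runs into the RefSeq gene, whose upstream end is at 36081851. Its start is therefore that of the promoter entry, not of the gene. The window holds an NF-kappaB match, GGAATGTCCC, from 242 bases before that start, and C/EBP matches. The Il1b window holds a C/EBP match and TATAAA. These matches describe letters only, and binding was not measured. Of the 7 genes, 6 have an entry among the promoters, and Ccl2 is the one without.

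The ratio of 2 genes within a sample is free of any scaling factor that applies to a whole library. It is not free of shifts that differ with gene length, which are described below. Of the 15 pairs of tested genes, none could pass a test at 0.05 with 3 samples against 3, so the ratios below are descriptions. Ccl2 stood at 0.614, 0.362 and 0.132 times Cxcl1 in siNC and at 1.04, 0.757 and 1.15 times in siS100A16. Cxcl1 was the more abundant of the pair in every control sample, and Ccl2 had drawn level with it or passed it in siS100A16 replicates 1 and 3. The mean log2 ratio was higher by 1.65 in siS100A16 (exact two-sided permutation p = 0.1, the smallest that 3 samples against 3 allow; adjusted over the 15 pairs of tested genes, 0.125).

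Cxcl1 stood at 12.5, 7.36 and 7.11 times Lcn2 in siNC and at 114, 30.4 and 82.0 times in siS100A16. The groups did not overlap, although Lcn2 alone did. The mean log2 ratio differed by 2.92 (exact two-sided permutation p = 0.1, adjusted 0.125).

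Il6 and Ptgs2 had about equal levels in the controls, with Il6 at 0.990, 0.843 and 1.03 times Ptgs2, and Il6 was the lower in siS100A16 at 0.338, 0.532 and 0.445 times. The mean ratios were 0.955 ± 0.0994 and 0.438 ± 0.0974 (SD, n = 3 each; exact two-sided permutation p = 0.1, adjusted 0.125). For Cxcl1 against Cxcl2 the ratio overlapped between groups (exact two-sided permutation p = 0.4). Of all pairs these 2 had the most similar profiles relative to their control means, with a root-mean-square difference of 0.42 on the log2(FPKM + 1) scale over the 6 samples. Next came Cxcl2 and Ptgs2 at 0.47 and Cxcl1 and Ptgs2 at 0.62, and Ccl2 and Lcn2 were the least similar at 3.41. This order rests on the added 1 FPKM, which damps Cxcl2: by the plain FPKM ratio the mean log2 difference between groups was -0.74 for Cxcl1 over Cxcl2, 1.39 for Cxcl2 over Ptgs2 and 0.66 for Cxcl1 over Ptgs2, so that Cxcl1 and Ptgs2 then come closest of these 3 pairs.

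**Figure D3:**
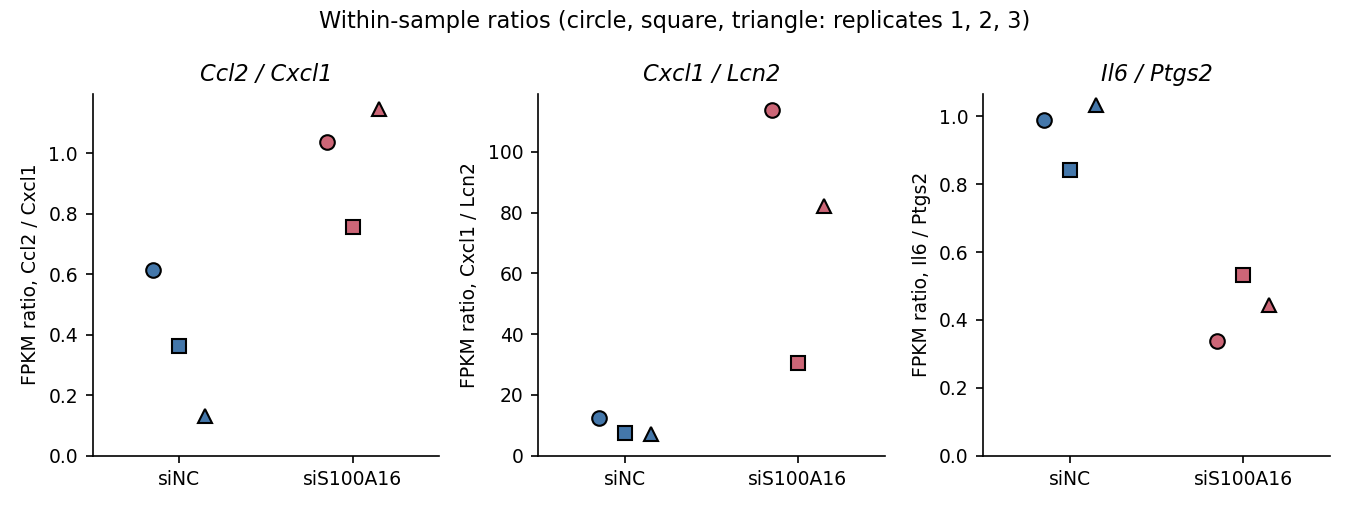
Ratio of FPKM of 2 genes within each sample, for Ccl2 over Cxcl1, Cxcl1 over Lcn2 and Il6 over Ptgs2, on linear axes that start at 0; circles, squares and triangles are replicates 1, 2 and 3. In each panel the 3 siNC points (blue) and the 3 siS100A16 points (red) do not overlap, with siS100A16 replicate 2 the red point nearest to the controls.

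The sample nearest to the other group was the same in 5 of the 6 tested genes. In Ccl2, Cxcl1, Cxcl2 and Ptgs2, and in Lcn2, which was not called, siS100A16 replicate 2 was the siS100A16 sample nearest to the siNC mean, and siNC replicate 1 was the siNC sample nearest to the siS100A16 mean. In Il6 replicate 3 was nearest in both groups. The place of siS100A16 replicate 2 is not particular to inflammatory genes: it was the nearest sample for 47.7% of all tested genes and for 59.0% of the 2556 called genes. For siNC replicate 1 these shares were 38.2% and 41.9%, and for siNC replicate 3 they were 36.5% and 43%. This ordering was looked at after the values were seen. Without siS100A16 replicate 2, 5 of the 6 genes were called, 4 higher and 1 lower, while calls over all tested genes also went up, to 2224 higher and 985 lower of 12349.

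Gene length and scaling also bear on these values. Ccl2, Cxcl1, Cxcl2 and Lcn2 have lengths of 784, 1004, 1072 and 1034 nt, and the 857 tested genes of 700 to 1100 nt, a range set after these lengths were known, had a median log2 fold change of 0.58 against 0.17 for all tested genes. With each library's trend with length removed, the log2 fold change was 2.97 for Ccl2 (limma adjusted p = 0.0264), 1.28 for Cxcl1 (0.0121), 0.90 for Cxcl2 (0.171) and -1.62 for Lcn2 (0.0371). Ptgs2, a longer gene, kept a log2 fold change of 0.98 (0.0309). Il6, of 1314 nt, stood at -0.45 and was not called (limma adjusted p = 0.347). Median-of-ratios scaling moved the median of all tested genes from 0.17 to -0.02, and under it Ccl2 and Cxcl1 were called higher, at 3.20 and 1.56, and Lcn2 lower. The part of library composition in these changes was not tested.

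**Figure D4:**
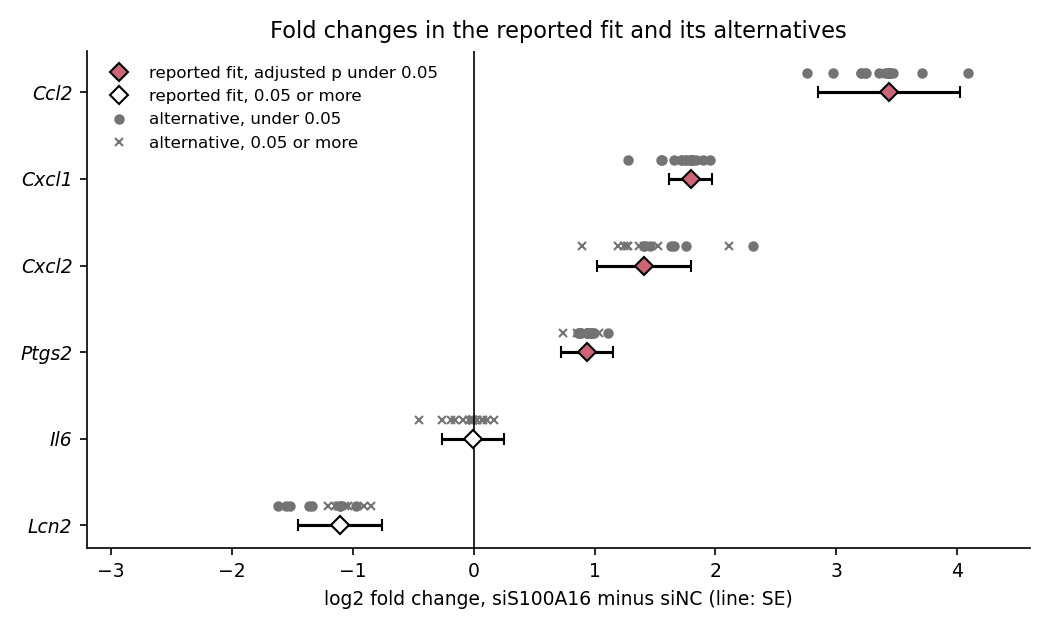
Log2 fold change, siS100A16 minus siNC, for the 6 tested genes, with the reported fit as a diamond and its SE as a line, and each alternative fit as a grey mark above it (dot, adjusted p under 0.05; cross, 0.05 or more). All marks of Ccl2 and Cxcl1 are dots to the right of 0, those of Cxcl2 and Ptgs2 are right of 0 with crosses among them, those of Il6 are crosses on both sides of 0, and those of Lcn2 are left of 0 with both kinds.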

How the data were processed

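RNA was sequenced from 3 siNC and 3 siS100A16 samples, with a library kit whose name refers to single cells, per the labels' protocols. The authors deposited FPKM values for 30560 genes. HISAT2 (2.1.0) and DESeq2 (1.14.1) are listed, with no role given, per the submitters' processing notes, which also name a mouse build although every identifier is a rat one. The read counter, annotation release and filters were not given in the sources used here. The control columns were taken as siNC and the others as siS100A16, the only other group, by the numbers in the titles.

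Whole reads, gene lengths and totals were worked out from the ratios of FPKM values, which were whole-number ratios for 22692 of 22692 genes above 0 (relative tolerance 3e-12). The worked-out reads came to at least 99.6% of each total, and for genes with few reads the smallest whole numbers were taken. limma 3.58.1 (R 4.3.3) was fitted to log2(FPKM + 1) on 12336 genes whose mean FPKM was at least 1, with the group as the only term, a variance prior following the level, two-sided tests and Benjamini-Hochberg adjustment over all tested genes. The working out of whole reads and totals was tested on simulated reads. Ratios were compared with exact permutation tests over samples. Alternatives covered the pseudocount, filter, scaling, length trend, variance prior, sample weights, replicate block, limma voom on the whole reads with trimmed-mean-of-M-values factors, thinning to equal depth and each sample left out. All 7 genes were named by rule. Planned lists of further inflammatory genes and cell markers, and S100A16, were not analysed here, as identifiers could not be paired with names: 0 of 47357 genes in the RefSeq table carry an Ensembl identifier. The genes and lists were chosen with earlier results of these data known.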

Additional observations from a re-analysis of the deposited data

How the results depend on the processing

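Ccl2 and Cxcl1 kept their direction and their call in all 18 alternatives, with log2 fold changes from 2.75 to 4.09 and from 1.28 to 1.95. Cxcl2 kept its direction in 17 but not its call with no filter (1.41), median of ratios (1.27), the length trend removed (0.90), limma voom (2.11) and thinning (1.37), and with single samples left out it ran from 1.19 to 1.75. Ptgs2 lost its call with median of ratios (0.74), and ran from 0.85 to 1.03 with samples left out. Lcn2 passed the threshold with a minimum mean FPKM of 5 (-1.10), median of ratios (-1.33), quantile normalization (-1.52), the length trend removed (-1.62), sample weights (-0.97) and limma voom (-1.36), and ran from -1.56 to -0.85 with samples left out. Il6, at -0.01, changed sign without a call with sample weights (0.17) and thinning (0.068), and ran from -0.16 to 0.11 with samples left out. Its lowest values, also without a call, were -0.45 with the length trend removed, -0.26 by limma voom and -0.18 with median of ratios. At a minimum mean FPKM of 5, Il6 and Cxcl2 are not tested. The 4 genes called became 2 to 5 with samples left out, those called higher 2 with median of ratios and 2 to 4 with samples left out. The count called lower went from 0 to 1 in each setting where Lcn2 passed, and from 0 to 1 over samples left out. Over all tested genes, the 2556 calls became 1563 with quantile normalization and 1366 with the length trend removed; of 2029 higher there were 705 after quantile normalization, 732 with the length trend removed, 890 by limma voom and 928 by median of ratios; for the 527 lower the same counts were 858 (quantile), 1057 (voom) and 821 (median of ratios). With samples left out these counts ran from 570 to 3209, 477 to 2224 and 93 to 985. The cause of these changes was not tested. Samples with the same number deviated together at correlations of at most 0.053, so the numbers were not taken to pair them; the fit with a replicate block called 5 of the 6 genes, with Lcn2 at -1.10 (limma adjusted p = 0.0298), and 2246 genes in all. Depth limits Cxcl2, Il6 and Il1b, which rest on at most 38 reads per sample.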
